A study of Sus scrofa with 18 samples.

Results

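Potassium channel genes were taken as all protein-coding RefSeq genes of Sscrofa11.1 on chromosomes 1 to 18 and X whose symbol begins with KCN, and 92 of the 19484 protein-coding genes on these chromosomes met the rule. The gene table held 94 such symbols, and KCNT1 and KCNT2, which lie on unplaced scaffolds, were left out. For each gene, H3K4me3 and H3K27ac peaks were read from 3 kb before to 3 kb after the gene.

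The peaks came from the mesometrial side of the uterus of Yorkshire gilts. GD15M_CM was the inner circular muscle on day 15 of pregnancy, GD15M_LM was the outer longitudinal muscle on day 15 of pregnancy, and CD15M_CM was the circular muscle on day 15 of the oestrus cycle. Each group had 2 gilts, and whether both layers of pregnancy came from the same gilts is not given for these libraries in the sources used here. CUT&Tag (antibody-guided cutting of chromatin by a transposase) was run on whole muscle layers separated by scalpel, so every cell type of a layer contributed. The authors pooled the 2 gilts of a group before calling peaks against IgG, which left 1 peak list per mark and group, so that no difference could be tested from these pooled lists or set against a spread between gilts.

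Potassium channels let potassium leave the cell, which holds the resting potential of a smooth muscle cell negative and ends its action potentials. Closing them favours calcium entry and contraction, and opening them favours a quiet uterus. H3K4me3 lies at promoters that are active or poised, and H3K27ac lies at promoters and enhancers in use. The family divides into voltage-gated Kv channels, calcium-activated BK, SK and IK channels, inward rectifiers, which include the ATP-sensitive channel, two-pore-domain leak channels, silent Kv subunits that work only in company with other Kv subunits, and accessory subunits that have no pore.

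Each peak was given a percentile, its rank by fold enrichment over IgG within its own list, and each gene took the percentile of its strongest peak. A percentile of 0 means that the window held no peak. The 6 lists held 31910 to 36331 peaks for H3K4me3 and 57010 to 82037 for H3K27ac, with the fewest in GD15M_LM for both marks. The lists hold no read counts, so a missing peak means only that none was called. The smooth muscle markers MYH11, ACTG2, DES, CNN1, SMTN and LMOD1 had peaks of both marks in every list. Of 4 skeletal and cardiac muscle markers, MYOD1 and TNNT2 had none, whereas ACTN2 had H3K4me3 percentiles of 55.0, 60.0 and 57.3 and H3K27ac percentiles of 26.3, 9.9 and 23.3 in GD15M_CM, GD15M_LM and CD15M_CM, and MYH7 had an H3K27ac peak (48.7) in both circular muscle lists.

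Potassium channel genes carried peaks less often than protein-coding genes at large. An H3K4me3 peak was present at 57 members in GD15M_CM (62.0%, against 74.0% of all genes), at 59 in GD15M_LM (64.1%, against 74.9%) and at 62 in CD15M_CM (67.4%, against 75.7%). An H3K27ac peak was present at 49 members in GD15M_CM (53.3%, against 74.1%), at 57 in GD15M_LM (62.0%, against 73.3%) and at 65 in CD15M_CM (70.7%, against 76.0%). When only peaks that touch no other gene were counted, the H3K4me3 shares were 47.8%, 53.3% and 56.5% of members in GD15M_CM, GD15M_LM and CD15M_CM, against 54.5%, 54.7% and 56.6% of all genes. The H3K27ac shares were then 42.4%, 51.1% and 58.7%, against 57.1%, 54.4% and 59.2%, so the difference from other genes was largely in GD15M_CM. For H3K27ac the family was furthest below the background in the circular muscle of pregnancy. Long genes held peaks more often, and the members were below all genes of their own length class for H3K4me3 in each list: among members of 100 kb or more, 65.4% had an H3K4me3 peak in GD15M_CM, against 86.8% of all genes of that length.

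The marked members also ranked lower than other marked genes. Among those with an H3K4me3 peak the median percentile was 61.2, 63.9 and 67.8 in GD15M_CM, GD15M_LM and CD15M_CM, against 81.5, 80.2 and 82.5 for all genes with a peak. For H3K27ac it was 64.7, 69.2 and 73.2, against 88.0, 84.4 and 86.2. Few members stood at the 90th percentile or above: 1, 7 and 3 for H3K4me3 and 5, 13 and 12 for H3K27ac, where 19.6% to 22.7% and 26.0% to 32.8% of all genes did.

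A core of 42 members (45.7%, against 67.4% of all genes) had peaks of both marks in all 3 groups, and 16 members (17.4%, against 18.6%) had no peak in any of the 6 lists. The 16 unmarked genes included channels known from other tissues. KCNA1, KCNA4, KCNC1 and KCNK9 are neuronal, and KCNK18 (TRESK) is a channel of sensory neurons. KCNJ1 is the ROMK channel of the kidney, and KCNU1 (SLO3) is the sperm channel. The textbook myometrial channel KCNJ13 (Kir7.1) had no peak either. KCNMB2, which makes BK channels inactivate, and KCNE2, a small partner of Kv channels, were also without a peak. The silent subunits KCNS1, KCNS2 and KCNV1 and the channels KCNA10 and KCNK16 were also among them. Neighbouring genes limit what a peak can be assigned to, because the windows of 38 members overlapped that of another protein-coding gene.

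**Figure D1:**
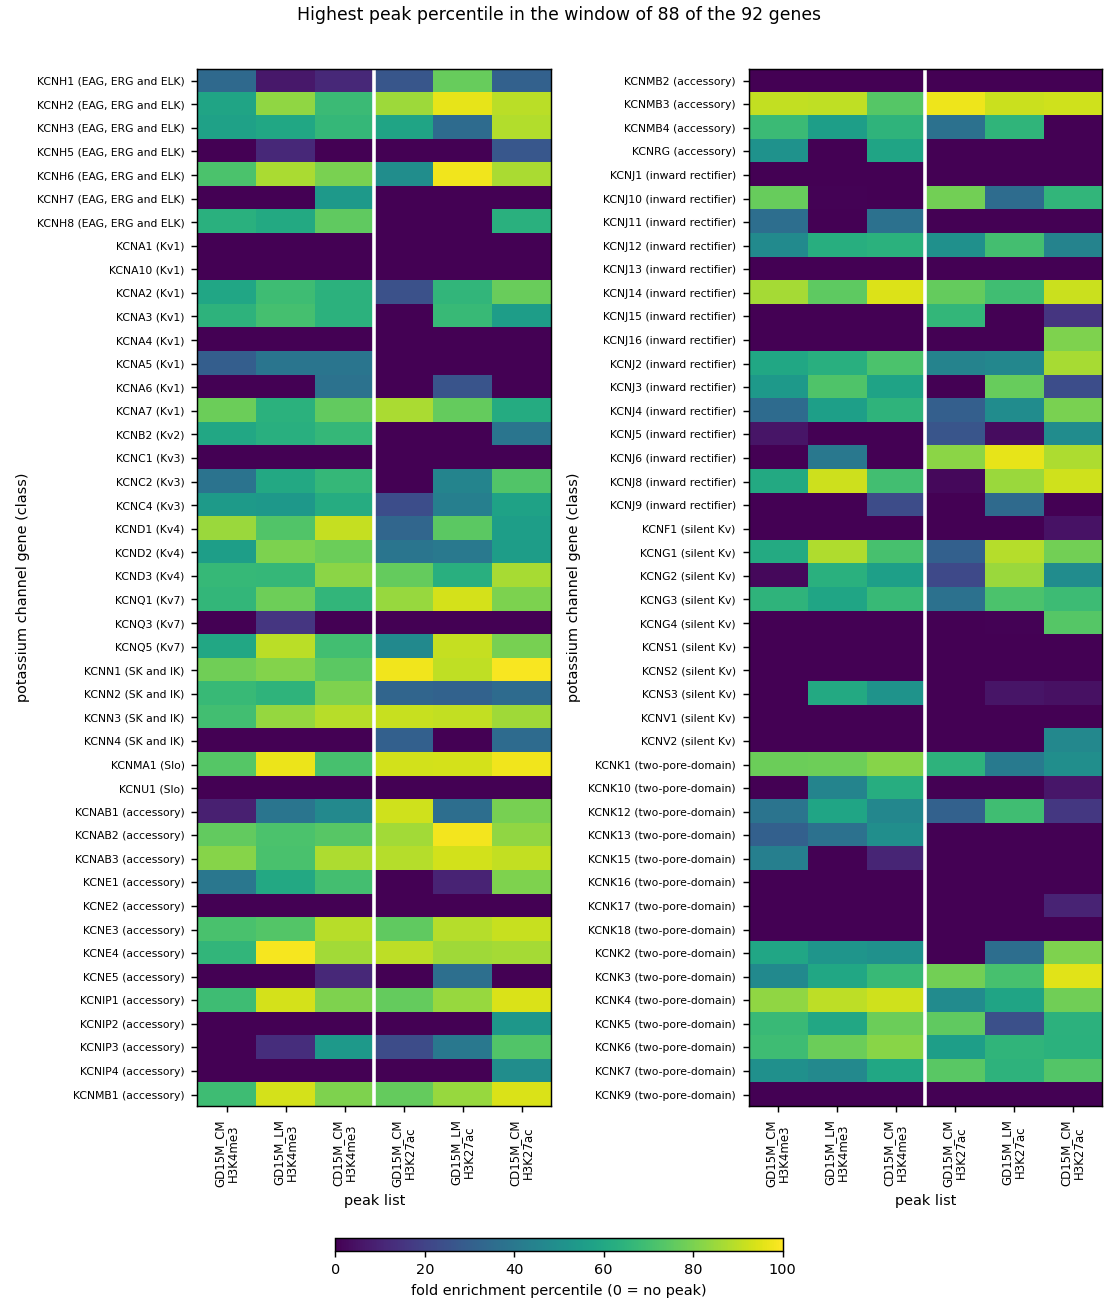
Percentile of the strongest peak in the window of 88 of the 92 potassium channel genes (rows, in order of class) in the 6 peak lists (columns, H3K4me3 left and H3K27ac right of the white line). Dark cells are genes without a peak, 15 rows are dark throughout, and KCNMA1, KCNMB1 and KCNN3 are among the rows that are bright in all lists.

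Among the calcium-activated channels, KCNMA1 held more H3K27ac peaks than any other member in each of the 3 lists. It encodes the pore of the BK channel, which opens with depolarisation and calcium and restrains myometrial contraction (chromosome 14, 79345382 to 80106337). Its H3K4me3 peak at the upper-coordinate end of the gene had a fold enrichment of 12.69, 33.22 and 13.22 in GD15M_CM, GD15M_LM and CD15M_CM. These stood at percentiles 73.5, 97.2 and 71.0, so the peak was highest in the longitudinal muscle and alike in rank in both circular muscle lists. The peak also extended over 6218 bp in GD15M_LM, 4959 bp in GD15M_CM and 5219 bp in CD15M_CM, and touched no other gene.

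H3K27ac over KCNMA1 took a different form. The percentiles of the strongest peak were 93.2, 93.7 and 97.9 in GD15M_CM, GD15M_LM and CD15M_CM, and these peaks lay inside the gene at different places. The gene held 111, 61 and 112 H3K27ac peaks, which covered 69.29, 44.47 and 76.56 kb of its 760.96 kb. The longitudinal muscle thus had the fewest H3K27ac peaks at the gene where its H3K4me3 peak was strongest. Its list was also the shortest, and with the same number of top peaks taken from each list the gene held 73, 61 and 73 peaks covering 52.75, 44.47 and 59.66 kb.

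KCNMB1 encodes the BK beta1 subunit of smooth muscle, which raises the calcium sensitivity of the channel. It lies on chromosome 16 (53616532 to 53631197) inside KCNIP1, and the same peak was the strongest for both genes in all 6 lists. The fold enrichment of its H3K4me3 peak was 10.65, 28.41 and 18.75 in GD15M_CM, GD15M_LM and CD15M_CM, at percentiles 69.0, 93.5 and 80.6. For H3K27ac the percentiles were 76.2, 84.5 and 94.4. Both marks were thus lowest in GD15M_CM at this gene. The beta3 subunit gene KCNMB3 stood at H3K4me3 percentiles of 90.9, 90.3 and 73.6, but that peak also touched ZNF639. The beta4 subunit gene KCNMB4 stood at 68.0, 55.9 and 65.0, with H3K27ac percentiles of 37.3, 65.6 and 0.

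Of the small-conductance channels, KCNN3 (SK3), an SK channel of the uterus, had H3K4me3 percentiles of 69.7, 84.1 and 89.3 and H3K27ac percentiles of 91.7, 90.9 and 85.7 in GD15M_CM, GD15M_LM and CD15M_CM. Its strongest peaks of both marks lay inside the gene. KCNN2 (SK2) had H3K4me3 percentiles of 67.5, 64.9 and 80.6 with low H3K27ac in each list (32.5, 31.6 and 34.8). KCNN4, the intermediate-conductance channel, had no H3K4me3 peak and an H3K27ac peak in both circular muscle lists only, at 30.5 in GD15M_CM.

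**Figure D2:**
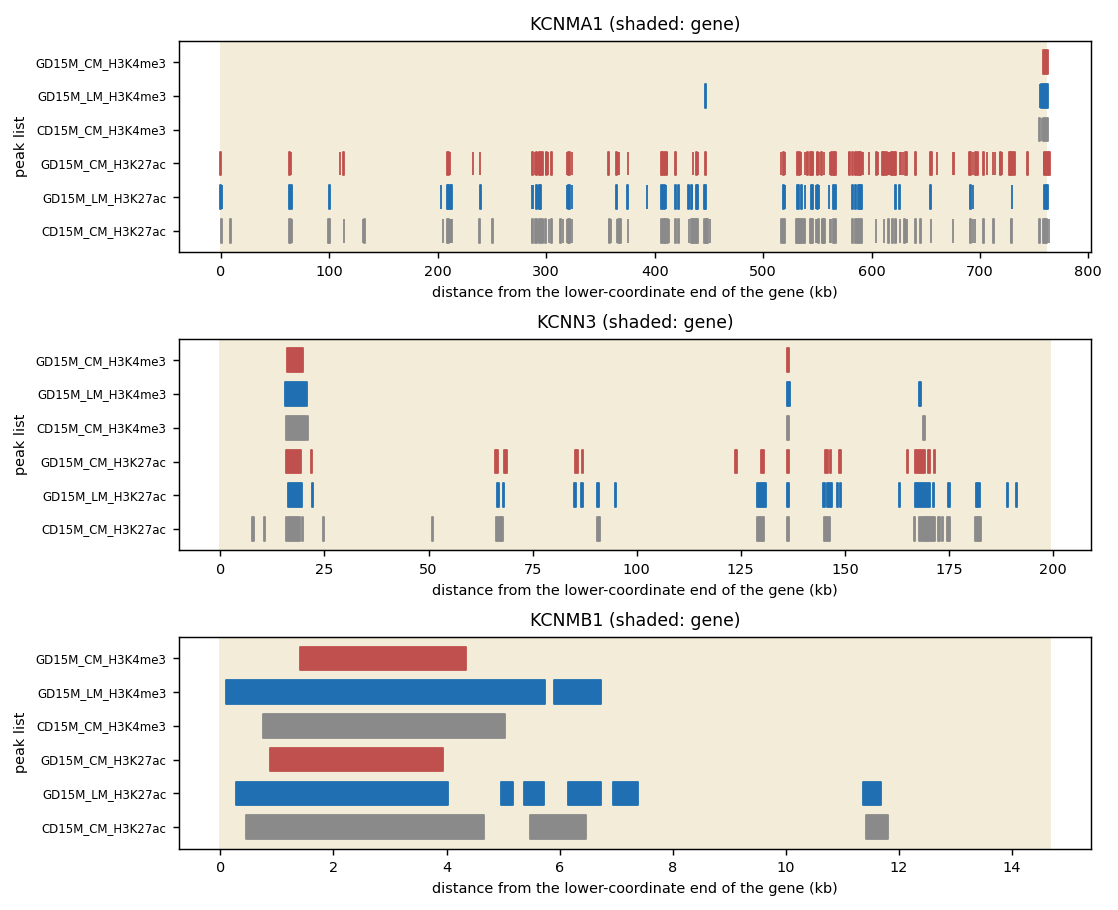
Peaks in the window of KCNMA1, KCNN3 and KCNMB1 in the 6 lists, drawn to scale as bars along the distance in kb from the lower-coordinate end of the gene (shaded), with GD15M_CM in red, GD15M_LM in blue and CD15M_CM in grey. KCNMA1 has 1 or 3 H3K4me3 peaks per list, the main one at the upper-coordinate end, and 61 to 112 H3K27ac peaks along its length.

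The Kv7 genes and their KCNE partners came next. Kv7 channels pass the slow current that steadies the resting potential, and KCNE subunits set how they open. KCNQ5 had H3K4me3 percentiles of 60.1, 89.6 and 69.9 in GD15M_CM, GD15M_LM and CD15M_CM, with fold enrichments of 6.80, 25.37 and 12.50. Its H3K27ac percentiles were 47.3, 91.1 and 79.3, but in CD15M_CM the strongest H3K27ac peak lay inside the gene and in the other lists at the end of the gene, so these ranks do not describe 1 site. KCNQ1 stood at 66.3, 77.8 and 65.8 for H3K4me3 and at 84.5, 93.7 and 80.2 for H3K27ac. In GD15M_LM its strongest H3K4me3 peak lay inside the gene and in the other lists at the end of the gene. Its strongest H3K27ac peak lay at a different place in each list, so the ranks of neither mark describe 1 site.

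KCNE4 encodes a subunit that alters Kv7 currents in smooth muscle, and it had the highest H3K4me3 percentile of the family. The fold enrichment of its H3K4me3 peak was 9.14, 37.06 and 22.03 in the same order, at percentiles 65.8, 98.5 and 86.2, with peaks that covered 3.52, 6.83 and 5.91 kb of the window of a 5.08 kb gene. H3K27ac was alike in the 3 lists (89.9, 85.7 and 86.6). KCNE3 stood at 71.4, 73.3 and 89.3 for H3K4me3 and KCNE1 at 39.7, 60.4 and 70.0. KCNE1 had no H3K27ac peak in GD15M_CM, a weak one in GD15M_LM (percentile 9.9) and one at 80.8 in CD15M_CM.

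Inward rectifiers varied widely among themselves. KCNJ8 encodes Kir6.1, the pore of the ATP-sensitive channel of smooth muscle (chromosome 5, 51695927 to 51704402). Its H3K4me3 fold enrichment was 6.99, 27.34 and 12.41 in GD15M_CM, GD15M_LM and CD15M_CM, at percentiles 60.7, 92.3 and 69.8. Its H3K27ac fold enrichment was 2.23, 5.68 and 5.80, at percentiles 2.2, 84.9 and 92.9, with the peak overlapping the same end of the gene in each list and touching no other gene. The GD15M_CM value was low and the other two stood together. KCNJ2 (Kir2.1) had H3K27ac percentiles of 44.8, 46.2 and 87.1. KCNJ11 (Kir6.2) had no H3K27ac peak in any list and an H3K4me3 peak in both circular muscle lists only (36.3 and 37.3), shared with ABCC8, the gene of its sulfonylurea receptor. KCNJ12 (Kir2.2) stood at 47.9, 62.8 and 63.9 for H3K4me3.

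Of the voltage-gated channels that shape myometrial action potentials, KCNH2 (ERG1) stood at 58.4, 83.4 and 68.1 for H3K4me3 and at 85.2, 96.2 and 89.6 for H3K27ac in GD15M_CM, GD15M_LM and CD15M_CM, with the strongest H3K4me3 peak inside the gene in GD15M_LM and at the end of the gene in the circular muscle. The strongest H3K27ac peak of KCNH2 lay inside the gene in both layers of pregnancy and at the end of the gene in CD15M_CM. KCND3 (Kv4.3) stood at 67.0, 66.5 and 82.8 for H3K4me3. KCNA2 (Kv1.2) had H3K4me3 percentiles of 59.1, 69.0 and 64.2 and H3K27ac percentiles of 24.9, 65.8 and 77.0, whereas KCNA5 (Kv1.5) had weak H3K4me3 peaks (29.7, 38.8 and 38.9) and no H3K27ac peak.

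Of the 10 silent Kv genes, 6 had no H3K4me3 peak in any list, which was so for 22.8% of all genes. There was no peak of either mark at 3, which was so for 18.6% of all genes. In CD15M_CM, 7 of the 10 had an H3K27ac peak, where 76.0% of all genes did. Those of KCNF1 (5.0) and KCNS3 (4.5) ranked low. KCNG1 had H3K4me3 percentiles of 61.2, 87.9 and 71.0 and H3K27ac percentiles of 30.8, 88.8 and 78.7 in GD15M_CM, GD15M_LM and CD15M_CM. KCNG2 had H3K4me3 percentiles of 2.0, 63.6 and 56.3 and H3K27ac percentiles of 22.2, 85.1 and 48.8. KCNS3 (Kv9.3) had no H3K4me3 peak in GD15M_CM and stood at 60.7 and 51.5 in the other lists. These 3 genes were lowest in GD15M_CM for H3K4me3, and KCNG3 (65.1, 58.9 and 67.5) was not.

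Two-pore-domain channels carry background leak current. KCNK2 (TREK-1), a stretch-activated channel, had H3K4me3 percentiles of 59.0, 52.1 and 50.7 and H3K27ac percentiles of 0, 36.0 and 80.7 in GD15M_CM, GD15M_LM and CD15M_CM. KCNK3 (TASK-1) stood at 47.3, 59.7 and 67.5 for H3K4me3 and at 78.7, 70.8 and 95.6 for H3K27ac. Its strongest H3K27ac peak in GD15M_LM lay at a different place from that in the circular muscle lists. KCNK1 (TWIK-1) had close H3K4me3 percentiles (77.6, 77.8 and 81.7). KCNK4 (TRAAK), KCNJ14 and KCND1 reached H3K4me3 percentiles of 92.6, 94.7 and 91.4 in CD15M_CM, but their strongest peaks also touched neighbouring genes (GPR137, CYTH2 and OTUD5 respectively).

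**Figure D3:**
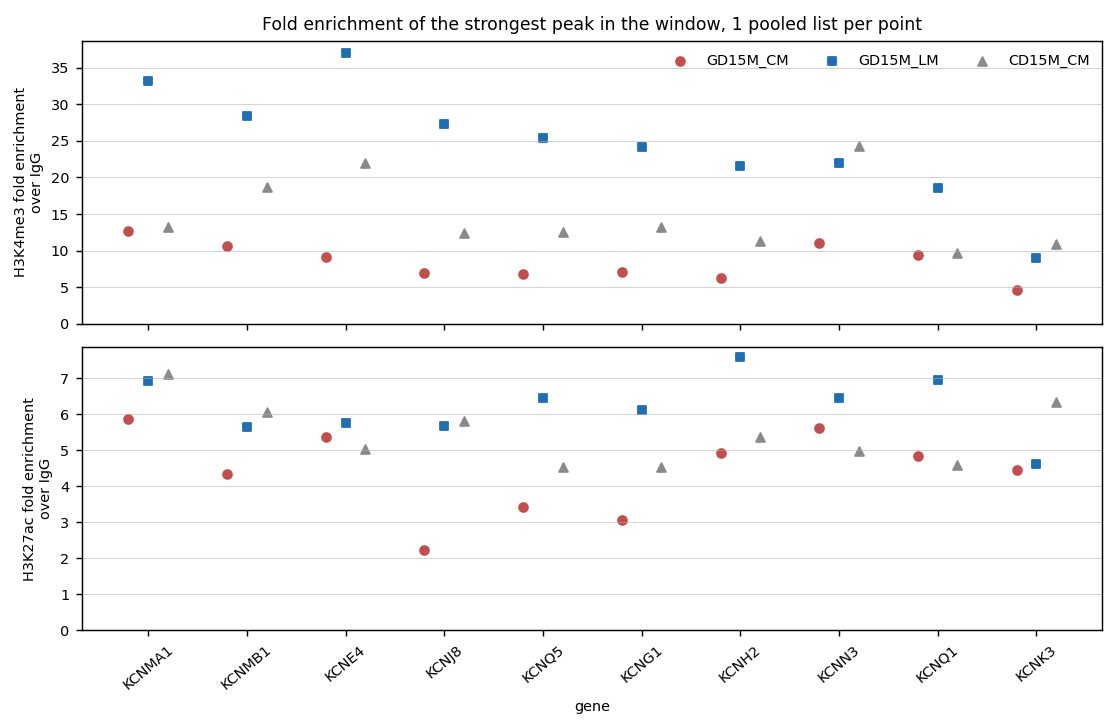
Fold enrichment over IgG of the strongest H3K4me3 (top) and H3K27ac (bottom) peak at 10 members, with 1 point per pooled list (circles GD15M_CM, squares GD15M_LM, triangles CD15M_CM). For H3K4me3 the GD15M_CM point is the lowest of the 3 at all 10 genes, which were picked after their values were seen, and KCNE4 reaches 37.06 in GD15M_LM.

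Over the 52 members with an H3K4me3 peak in all 3 lists, the fold enrichment was lowest in GD15M_CM at 41 and highest there at 3. All genes were not counted in this way, so these counts have no background beside them. KCNK2 (6.43, 6.09 and 4.70 in GD15M_CM, GD15M_LM and CD15M_CM) and KCNMB4 (10.20, 7.29 and 9.25) were among the genes that went the other way. The upper part of the whole GD15M_CM list was lower too, with a 90th percentile of 20.32, against 25.58 in GD15M_LM and 24.80 in CD15M_CM. The median of the whole GD15M_CM list (4.86) was below that of GD15M_LM (5.66) and above that of CD15M_CM (4.64).

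Between the muscle layers of pregnancy, potassium channel genes more often had the higher H3K4me3 rank in the longitudinal muscle. H3K4me3 was at least 20 percentile points higher in GD15M_LM than in GD15M_CM at 18 members (19.6%), against 5.66% of all genes, and at least 20 points lower at 5 members (5.43%), against 5.23%. The 18 included the BK genes KCNMA1 and KCNMB1, the subunit genes KCNE4 and KCNE1, KCNQ5, KCNJ8, KCNH2, KCNG1, KCNG2 and KCNS3, and 15 of the 18 had a peak in both lists. KCNIP1 was also among the 18 through the same peak as KCNMB1, so that peak was counted under both genes. Over members with a peak in either list the median difference was 6.7 points, against -0.4 over all such genes. KCNG2 differed by 61.6 points, KCNE4 by 32.7, KCNJ8 by 31.5 and KCNMA1 by 23.6. Of all members past 20 points in either direction, the strongest peaks of both lists overlapped at 13, lay at different places of the gene at 4 (KCNAB1, KCNH1, KCNH2 and KCNJ10), and were present in 1 list only at 6.

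The share was also read within classes of signal level and of gene length. Among genes with a mean percentile above 0 and under 40 the members were not in excess, with 5 of 16 (31.2%) higher in GD15M_LM, against 44.8% of all genes. Among genes with a mean percentile from 40 to under 75, 8 of 33 members (24.2%) were higher, against 5.66% of all genes of that level. At a mean percentile of 75 or more it was 5 of 14 members (35.7%), against 3.96%. In genes under 20 kb, from 20 to 100 kb, and of 100 kb or more, 13.5%, 17.2% and 30.8% of members were higher, against 4.6%, 5.6% and 9.32% of all genes.

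The 5 members lower in GD15M_LM were KCNJ10, KCNRG, KCNK15, KCNJ11 and KCNH1. KCNJ10 (Kir4.1) stood at 76.6, 0.7 and 0 in GD15M_CM, GD15M_LM and CD15M_CM. The GD15M_CM peak lay beyond the end of the gene and touched PIGM, and with a window of 1 kb the difference between the layers was 0.7 points. The peak of KCNJ11 was shared with ABCC8. KCNH1 (EAG1) stood at 34.3 and 6.4, while its H3K27ac stood at 26.7 and 76.6, higher in GD15M_LM.

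H3K27ac was at least 20 points higher in GD15M_LM than in GD15M_CM at 19 members (20.7%), against 10.2% of all genes, and at least 20 points lower at 8 members (8.7%), against 15.1%. KCNJ8 (82.7 points), KCNJ3 (76.6), KCNA3 (67.4), KCNG2 (62.9) and KCNG1 (57.9) differed most upward, and KCNJ3 and KCNA3 had no peak in GD15M_CM. KCNJ3 encodes GIRK1, a channel opened by G proteins, and KCNA3 encodes Kv1.3. KCNJ15 (-66.3 points), KCNAB1 (-56.6), KCNK5 (-51.1), KCNJ10 (-43.4) and KCNN4 (-30.5) differed most downward. KCNAB1, a Kv beta subunit gene, stood at 92.9, 36.3 and 79.3 in the same order, with a GD15M_CM peak that also touched SSR3. The strongest peaks of both lists overlapped at 10 of the members past 20 points, lay at different places at 8, KCNAB1 and KCNJ10 among them, and were present in 1 list only at 9. When peaks were kept only from a fold enrichment of 5 and a −log10 p of 10 upwards, the excess over the background was not seen for H3K27ac (18.5% of members, against 20.6% of all genes), and it was still seen for H3K4me3 (25.0%, against 14.6%).

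**Figure D4:**
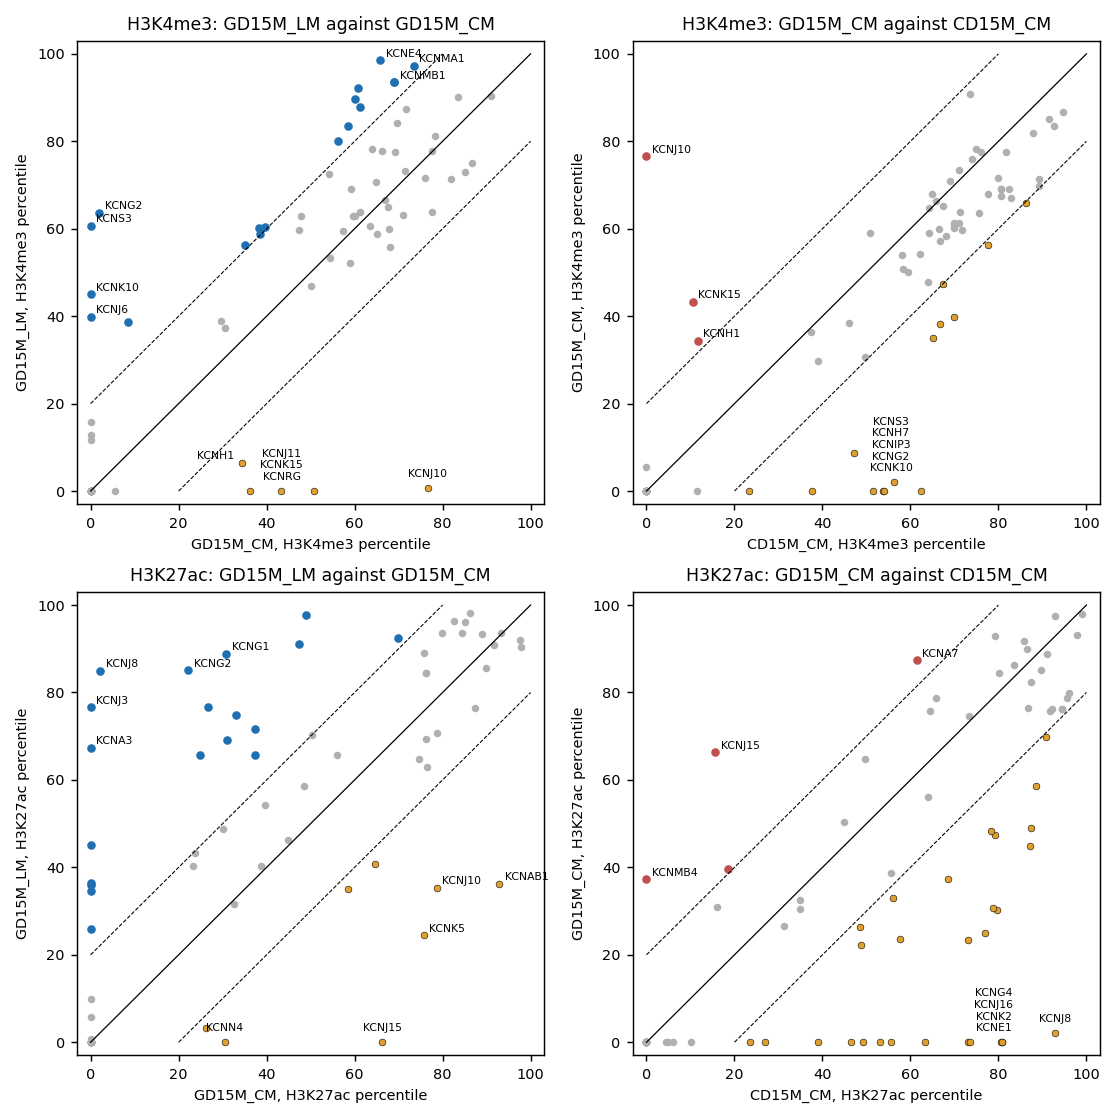
Percentiles of the 92 members in the first group (y axis) against the second (x axis) of each comparison, for H3K4me3 (top) and H3K27ac (bottom), with dashed lines at 20 points from equality. Filled blue or red points are higher and orange points lower in the first group by at least 20 points, with 18 blue points for H3K4me3 and 29 orange points for H3K27ac.

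The comparison of pregnancy with the oestrus cycle used the same GD15M_CM lists, so it is no separate evidence on them. H3K4me3 was at least 20 points higher in GD15M_CM than in CD15M_CM at 3 members (3.26%), against 2.15% of all genes, and lower at 14 members (15.2%), against 6.09%. The 3 higher genes were KCNJ10, KCNK15 and KCNH1. The 14 lower genes included KCNK10 (-62.4 points), KCNG2 (-54.3), KCNIP3 (-54.0), KCNH7 (-53.7) and KCNS3 (-51.5), and 6 of the 14 had no peak in GD15M_CM. KCNE1 (-30.3), KCNE4 (-20.3) and KCNK3 (-20.2) were among the others. KCNMA1 differed by 2.6 points and KCNJ8 by -9.0 points, so these genes were not among them. At the members past 20 points the strongest peaks overlapped at 10 and were present in 1 list only at 7. By signal level, 8 of the 14 lower genes had a mean percentile above 0 and under 40. There the members were not in excess (8 of 15, 53.3%, against 53.5% of all genes). From 40 to under 75 it was 5 of 36 members (13.9%), against 8.02%, and at 75 or more 1 of 13 (7.69%), against 3.66%.

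H3K27ac passed 20 points at more members, and at more of all genes. It was at least 20 points higher in GD15M_CM than in CD15M_CM at 4 members (4.35%), against 11.3% of all genes, and at least 20 points lower at 29 members (31.5%), against 12.2%. The 4 higher included KCNJ15 (50.6 points), KCNMB4 (37.3) and KCNA7. The KCNA7 difference (25.9) compared a GD15M_CM peak that also touched NTF4 with a CD15M_CM peak at the other end of the gene, and it became -9.0 with a window of 1 kb. The 29 lower were led by KCNJ8 (-90.8), KCNE1 (-80.8), KCNK2 (-80.7), KCNJ16 (-80.5) and KCNG4 (-73.5), and also held KCNA2 (-52.1), KCNJ2 (-42.3) and KCNQ5 (-32.0). In 13 of the 29 there was no peak in GD15M_CM, and in 16 there was a peak in both lists. Of all members past 20 points in either direction, the strongest peaks overlapped at 11, lay at different places at 8, KCNQ5 and KCNA7 among them, and were present in 1 list only at 14. By class the 29 were 6 of 15 inward rectifiers, 5 of 10 silent Kv genes, 4 of 7 EAG, ERG and ELK genes, 4 of 17 accessory genes and 2 of 15 two-pore-domain genes, with the other 8 spread over the other Kv classes. In genes under 20 kb, from 20 to 100 kb, and of 100 kb or more, 24.3%, 37.9% and 34.6% of members were lower, against 10.1%, 13.3% and 16.3% of all genes. At a mean percentile from 40 to under 75 it was 16 of 25 members (64.0%), against 33.3%, whereas at 75 or more it was 1 of 19 (5.26%), against 5.11%. With the stricter peaks the excess was not seen for H3K27ac (10.9% of members lower, against 15.8% of all genes), and for H3K4me3 it narrowed (17.4%, against 13.5%).

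The presence of peaks and the length they covered showed the same pattern. They were read from the same lists, so they are no separate evidence. An H3K27ac peak in CD15M_CM alone was found at 10 members (10.9%, against 1.73% of all genes), and a peak in GD15M_CM alone at 0 (against 1.43%). Those 10 members ranked from 5.0 (KCNF1) to 80.5 (KCNJ16), with KCNK10 (6.0) and KCNK17 (10.1) also low. Of the 67 members with any H3K4me3 peak, CD15M_CM was the highest list at 35 (52.2%, against 41.8% of all genes), GD15M_LM at 22 (32.8%, against 28.2%) and GD15M_CM at 10 (14.9%, where 4517 of 15043 genes with a peak were highest in this list). Of the 69 members with any H3K27ac peak, GD15M_CM was the highest at 10 (14.5%, against 37.0% of all genes). Summed over the 92 windows, H3K4me3 peaks covered 141, 198 and 199 kb in GD15M_CM, GD15M_LM and CD15M_CM, and H3K27ac peaks covered 239, 277 and 350 kb. The ratio of GD15M_LM to GD15M_CM was 1.41 for H3K4me3 and 1.15 for H3K27ac over the members, against 1.08 and 0.788 over all genes. The ratio of GD15M_CM to CD15M_CM was 0.707 and 0.684, against 0.876 and 0.919.

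**Figure D5:**
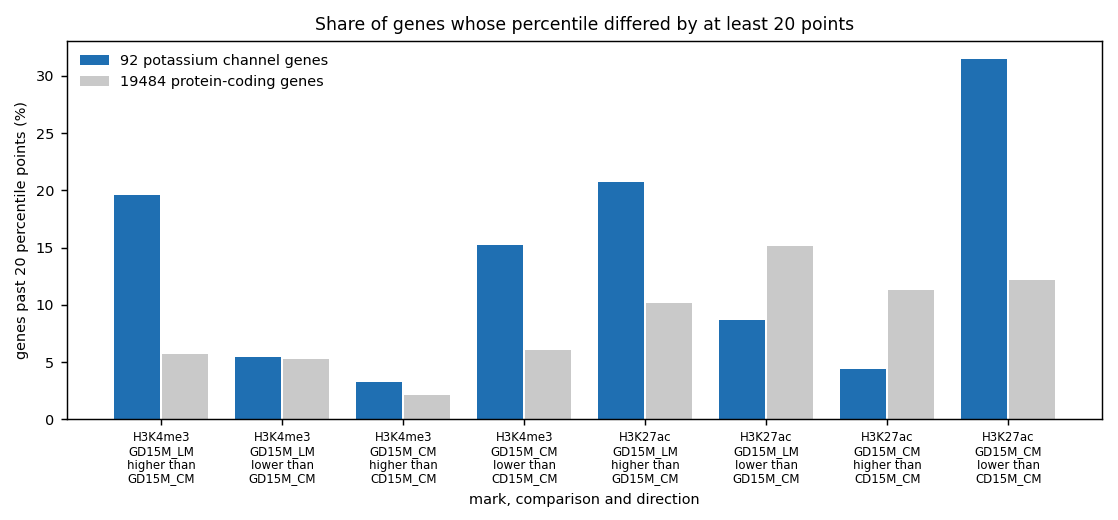
Share of the 92 potassium channel genes (blue) and of all 19484 protein-coding genes (grey) whose percentile was at least 20 points higher or lower in the first group named, for each mark and comparison. The blue bar is above the grey one by the widest margin for H3K27ac lower in GD15M_CM than in CD15M_CM (31.5% against 12.2%).

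Markers of some cell types also differed between the lists, some in the direction of the family and some in the other. All 6 smooth muscle markers had peaks in every list, and their median H3K4me3 percentile was 77.0, 90.1 and 88.9 in the order GD15M_CM, GD15M_LM and CD15M_CM, with ranges of 71.0 to 81.8, 71.4 to 96.7 and 77.0 to 94.5. Their H3K27ac medians were 85.9, 91.0 and 91.6, with ranges of 68.6 to 96.6, 80.3 to 95.4 and 87.8 to 98.1, and MYH11 (96.6 and 82.1) and SMTN (94.8 and 80.3) were higher in GD15M_CM than in GD15M_LM. The 5 uterine epithelial markers (EPCAM, CDH1, KRT8, KRT18 and ESRP1) had H3K4me3 medians of 79.4 (75.1 to 81.6), 59.1 (54.3 to 59.4) and 84.5 (71.9 to 87.4). Their H3K27ac medians were 76.1 (66.0 to 84.1), 19.8 (0 to 42.1) and 71.9 (4.8 to 84.9). The 4 T cell markers had H3K4me3 medians of 67.0 (51.7 to 90.9), 59.7 (57.5 to 63.2) and 54.7 (47.2 to 73.2). CD3E was higher in GD15M_LM (57.5) than in GD15M_CM (51.7). An H3K27ac peak was present at 2 of the 4 in GD15M_CM and at 1 in each of the other lists. Of the neuronal and glial markers, SNAP25 stood at 27.4, 56.1 and 58.9 for H3K4me3 and at 0, 17.9 and 80.9 for H3K27ac. Endothelial markers differed less, with H3K4me3 medians over 4 genes of 61.3, 62.4 and 65.1, and those of macrophages were 61.3, 54.1 and 58.0 over 3 genes. H3K4me3 medians were 73.5, 82.2 and 79.8 for fibroblasts (3 genes), 67.0, 65.5 and 77.3 for interstitial cells (3 genes) and 54.2, 61.0 and 59.9 for mesothelium (3 of 4 genes placed). The H3K27ac medians of these 3 sets were 87.6, 94.2 and 97.4, then 55.9, 47.1 and 69.6, and then 70.4, 54.6 and 82.3. Fewer cells of a type and less mark per cell cannot be told apart in such layers, and the part of these cell types in the results was not tested.

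Of 14 genes outside the family whose products assemble with these channels or gate them, 12 were placed on these chromosomes. For H3K4me3, 0 of the 12 were at least 20 points higher in GD15M_LM than in GD15M_CM and 2 were lower, and 0 were higher and 1 lower in GD15M_CM than in CD15M_CM. For H3K27ac, 1 was higher and 0 lower in the first comparison, and 1 was higher and 1 lower in the second. ABCC9, the receptor subunit that joins Kir6.1, stood at 73.4, 84.1 and 77.1 for H3K4me3 and at 88.0, 91.5 and 97.0 for H3K27ac in GD15M_CM, GD15M_LM and CD15M_CM, so it had a high H3K27ac rank in GD15M_CM, where KCNJ8 stood at 2.2. PRKG1, the kinase that opens BK channels, stood at 99.3, 89.0 and 96.7 for H3K4me3. KCTD12, an auxiliary subunit of a receptor that opens GIRK channels, stood at 28.8, 88.4 and 93.4 for H3K27ac.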

How the data were processed

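H3K4me3, H3K27ac and IgG CUT&Tag libraries (18 in all, labelled ChIP-seq) came from 3 groups with 2 gilts each, and the sources used here do not give for these libraries whether the layers shared gilts. Per the submitters' processing notes, BWA 0.7.17-r1188, SAMtools 1.9, Picard 2.8.3 and MACS2 2.2.6 were used. The authors mapped reads to Sscrofa11.1, removed duplicates and low-quality alignments, pooled the replicates of a group and called peaks against IgG with MACS2. The deposited lists give for each peak its position, length, fold enrichment (a ratio over IgG) and the −log10 p-value (a column whose header was damaged and which was identified from its values; the q-value column was not used). The authors gave no read counts in these lists and their library totals were not used here, so no interval was computed.

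RefSeq gene models of Sscrofa11.1 were used without strand. A peak belonged to a gene when at least 1 base lay in the gene or within 3 kb, so 1 peak may serve several genes. Python 3.11.15, pandas 2.3.3, NumPy 2.4.6 and Matplotlib 3.10.9 were used, and the overlap code was tested on simulated data (0 of 1600 windows differed from a direct count). A difference of 20 percentile points was counted, with no test. Named genes were textbook myometrial channels, the 5 members with the greatest difference per direction, those at the 90th H3K4me3 percentile or above, and those without peaks. Members, lists and thresholds were chosen with earlier results of these data known. Planned promoter and protein features were not examined, and no sequences are shown. Alternatives were the peak threshold, window, overlap, shared peaks, list length, ranking and difference threshold. Some genes are not reported here.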

Additional observations from a re-analysis of the deposited data

How the results depend on the processing

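No paired analysis was possible because the replicates were pooled before peak calling and no column carries a replicate, and for the same reason no replicate could be left out. Counts of members were compared with those above at 1.5 times. Peaks of −log10 p of at least 10 and fold of at least 5 left fewer members with an H3K27ac peak. They were 8 in GD15M_CM (8.7%, against 38.9% of all genes), 20 in GD15M_LM (21.7%, against 44.5%) and 18 in CD15M_CM (19.6%, against 37.7%). In GD15M_LM against GD15M_CM, 3 members had lower H3K4me3 (3.26%, against 10.7%) and 2 lower H3K27ac (2.17%, against 15.2%). In GD15M_CM against CD15M_CM, 10 had lower H3K27ac (10.9%, against 15.8%). Peaks that touch no other gene gave 2 members with lower H3K4me3 in GD15M_LM (2.17%, against 6.47% of all genes). They gave 1 with higher H3K4me3 in GD15M_CM than in CD15M_CM (1.09%, against 3.69%). At 10 points, H3K4me3 was higher in GD15M_LM at 28 (30.4%, against 14.7% of all genes) and lower at 10 (10.9%, against 15.5%). H3K27ac was higher there at 30 (32.6%, against 16.6%). In GD15M_CM against CD15M_CM, H3K4me3 was lower at 26 (28.3%, against 17.6%) and H3K27ac higher at 9 (9.78%, against 19.1%). At 30 points, H3K4me3 was higher in GD15M_LM at 7 (7.61%, against 2.51% of all genes) and H3K27ac lower there at 5 (5.43%, against 9.81%). In GD15M_CM against CD15M_CM, H3K4me3 was lower at 9 (9.78%, against 2.78%) and H3K27ac higher at 2 (2.17%, against 6.87%). Ranking by −log10 p gave 8 members with lower H3K4me3 in GD15M_CM than in CD15M_CM (8.7%, against 3.49% of all genes). In that comparison, 3 kb around either gene end gave 7 with higher H3K27ac (7.61%, against 12.7%). The same number of top peaks in each list gave 31 members with higher H3K27ac in GD15M_LM (33.7%, against 16.1% of all genes). It gave 4 with lower H3K27ac there (4.35%, against 11.4%). Counting only genes with a peak in both lists was chosen after seeing the data. It gave 2 members with lower H3K4me3 in GD15M_LM (3.77%, against 5.72% of all such genes) and 12 with higher H3K27ac there (25.5%, against 11.6%). In GD15M_CM against CD15M_CM it gave 8 with lower H3K4me3 (14.5%, against 5.87%) and 16 with lower H3K27ac (33.3%, against 12.9%). The other 91 counts stayed within 1.5 times. Of the named members' differences 9 changed sign: KCNJ10 H3K4me3 between the layers became 0.7 with a 1 kb window, with unshared peaks and with 50% overlap. KCND1 H3K27ac became -12.8 between the layers (1 kb, and 50% overlap) and 14.8 between GD15M_CM and CD15M_CM (1 kb). With 3 kb around either end, KCNA2 H3K27ac became -15.9 between the layers and 15.9 against CD15M_CM, and with 1 kb KCNA7 became -9.0 there. Where the setting itself does not show it, the cause was not tested.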

Other observations

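Further members outside the rule for naming were chosen after their values were seen. KCNAB2, a Kv beta subunit gene, had its strongest H3K27ac peak inside the gene, touching no other gene, at percentiles 86.2, 98.2 and 83.5 in GD15M_CM, GD15M_LM and CD15M_CM, while its H3K4me3 percentiles were close (76.0, 71.6 and 73.9). KCND2 (Kv4.2) stood at 56.2, 80.1 and 77.6 for H3K4me3, with fold enrichments of 5.74, 19.82 and 17.05. KCNC2 (Kv3.2) stood at 38.2, 60.2 and 66.6 for H3K4me3 and had no H3K27ac peak in GD15M_CM, against 45.2 and 73.0 in the other lists. KCNJ4 (Kir2.3) stood at 35.1, 56.3 and 65.2 for H3K4me3 and at 30.2, 48.8 and 79.7 for H3K27ac. GD15M_CM was the lowest list for both marks at KCNC2, KCND2 and KCNJ4. KCNN1 (SK1) held H3K27ac percentiles of 97.9, 90.3 and 99.1, but its strongest peak also touched ARRDC2 in each list, and that of KCNH6 touched DCAF7.

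KCNJ6 (GIRK2), whose H3K4me3 window held a peak only in GD15M_LM (39.9), had H3K27ac peaks inside the gene at 82.5, 96.3 and 87.5, covering 4.84, 8.26 and 7.95 kb. KCNAB1 likewise had H3K27ac at 92.9 in GD15M_CM beside H3K4me3 at 8.6. These peaks lay 366.41 to 366.85 kb and 0.08 to 0.44 kb from the lower-coordinate end, and the H3K27ac peak also touched SSR3. In GD15M_LM the strongest KCNJ6 peaks of the marks lay at different places too. The highest ranks of the marks in these windows thus differed, but they do not describe 1 site.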
